A study of Mus musculus with 8 samples.

Results

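The genes described are 46 mouse genes of autophagy and the lysosome, taken by symbol from the 53647 Ensembl genes counted in each library. They comprise 27 autophagy genes, 17 lysosome genes and the transcription factors Tfeb and Tfe3, which act on both and are counted in neither class. All 46 symbols matched a counted gene, and 44 passed the filter on low counts (27 autophagy genes, 15 lysosome genes and both factors). The genes that did not pass are the cathepsins Ctsk, at 3 to 10 counts per library, and Ctss, at 0 or 1 count per library.

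RNA was sequenced from wild-type mouse primary myotubes, the multinucleated cells that form when cultured muscle precursors fuse. The precursors were taken from limb muscle of pups 2 to 3 days old and differentiated in medium with 5% horse serum. Of the 4 groups, of 2 libraries each, 1 was the control and the others received OSM (oncostatin M), LIF (leukaemia inhibitory factor) or IL6 (interleukin 6), each at 250 ng/ml for 48 h. All were harvested 72 h after differentiation. The labels give the control no dose and do not name a vehicle. Whether replicates came from separate animals or cultures is not given, so p-values measure only the spread between these libraries, which may be technical.

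Autophagy encloses parts of the cytoplasm in a double membrane, the autophagosome, and delivers them to the lysosome. The ULK1 kinase complex starts the process, a lipid kinase complex built on VPS34 (Pik3c3) and Beclin 1 (Becn1) marks the membrane, and a conjugation machinery attaches proteins of the ATG8 family (LC3 and GABARAP) to it. Lysosomal hydrolases such as the cathepsins then break down the contents. In muscle, autophagy takes part in the turnover of organelles and in the loss of mass on fasting or denervation. OSM, LIF and IL6 belong to 1 cytokine family, whose receptors all contain the subunit gp130.

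Gene counts summed to 29482077 to 30025471 in each library, with 21358 to 21831 genes detected. Levels are given as CPM, read counts scaled to library size after TMM normalization, in the order replicate 1 and replicate 2 of each group. Differences are log2 changes with their standard error (SE) and the adjusted p of edgeR's quasi-likelihood test, adjusted by Benjamini and Hochberg over 15603 genes. A gene is called, and is said to have risen or fallen, where that adjusted p is under 0.05. The 13 myotube markers all passed the filter, at summed levels of 29580 to 34400 CPM over the 8 libraries. In bulk RNA, a change in the share of a cell type and a change in RNA per cell cannot be told apart.

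With OSM, RNA rose for 4 of 6 cathepsin genes tested, 3 of 5 genes of lysosomal membrane proteins and 9 of 27 autophagy genes. Ctsa and Ctsb, the genes of cathepsins A and B, rose to 1.94 and 1.81 times their control level, and Lamp2, a structural protein of the lysosomal membrane, to 1.54 times. Of the 44 genes tested, 17 rose and 1 fell with OSM, against backgrounds of 10.8% of all genes called higher and 10.6% called lower, or 21.4% called in all. Among the 15 lysosome genes 8 rose and none fell, and among the 27 autophagy genes 9 rose and 1 fell. With LIF 3 genes rose (Ctsa, Ctsb and Lamp2) and none fell. These are 6.82% of the 44, near the 7.66% of all genes called with LIF, while 4.2% of all genes were called higher. Without OSM replicate 1, the 18 calls with OSM came to 12 and the calls over all genes went from 3335 to 1628. Without OSM replicate 2 they came to 12 and 1852. Without IL6 replicate 1 or 2, the 3 calls with LIF came to 7, and the calls over all genes went from 1195 to 1684 and 1678. Without LIF replicate 2 they came to 1 and 310. With IL6 no gene of the 44 was called, and none of the 15603 was (0%) in edgeR's test.

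Counted without a test, 30 of the 44 genes had both OSM libraries above both control libraries (17 autophagy genes, 12 lysosome genes and Tfe3), where 29.9% of all genes did. With LIF the count was 23 (13 autophagy and 10 lysosome genes), where 25.2% of all genes did. With IL6 it was 7 (5 autophagy and 2 lysosome genes), where 14% of all genes did.

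**Figure D1:**
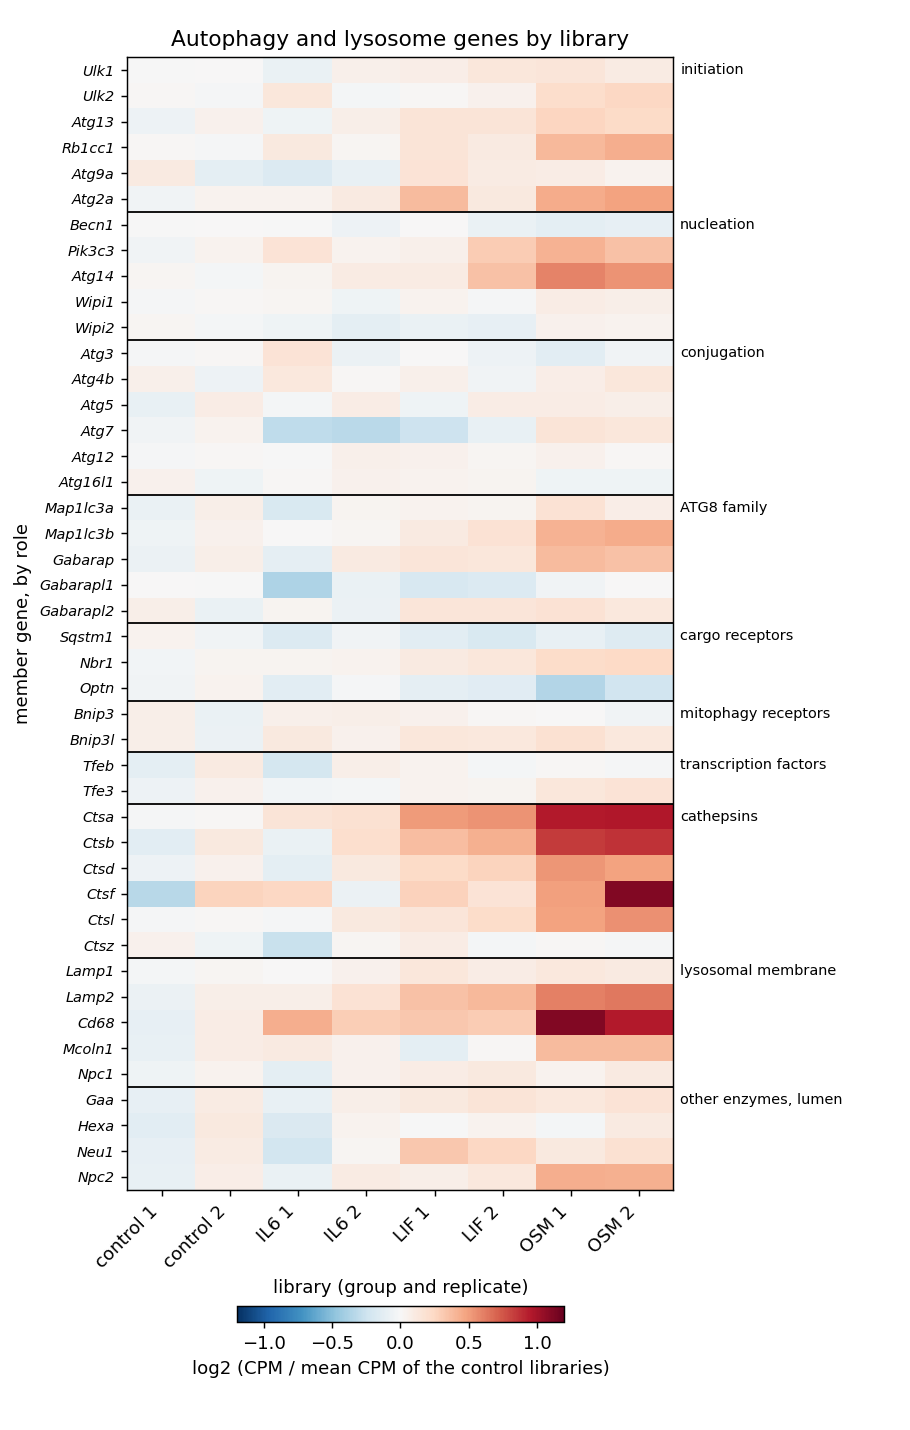
Level of each of the 44 tested genes (rows, by role) in each of the 8 libraries (columns), as the log2 ratio of CPM to the mean of the 2 control libraries. The OSM columns are the reddest, with Ctsa, Ctsb, Lamp2 and Cd68 among the strongest rows. Ctsf rests on 9 to 25 counts per library.

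Cathepsins are the proteases of the lysosome, and 4 of the 6 tested rose with OSM, where 10.8% of all genes were called higher. Ctsa encodes a serine carboxypeptidase that also protects other lysosomal enzymes. It stood at 188 and 193 CPM in control, 212 and 216 with IL6, 271 and 276 with LIF, and 369 and 371 with OSM. Both OSM libraries were above both LIF libraries, which were above all IL6 and control libraries. The group means were 190.4 ± 3.40 CPM in control, 274 ± 3.35 with LIF and 370.0 ± 1.64 with OSM (SD, n = 2), and the rise with OSM was log2 0.96, SE 0.055, adjusted p 6.52e-08.

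Ctsb, a cysteine protease, was measured at 407 and 483 CPM in control, 421 and 513 with IL6, 574 and 599 with LIF, and 797 and 811 with OSM. The OSM libraries lay highest, and control replicate 1 lay well below control replicate 2. Its mean went from 445 ± 53.4 CPM in control to 804 ± 9.82 with OSM (SD, n = 2), a rise of log2 0.85, SE 0.095, adjusted p 4.92e-05.

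Ctsd encodes cathepsin D, an aspartic protease. Its levels were 446 and 483 CPM in control, 427 and 502 with IL6, 546 and 561 with LIF, and 671 and 649.9 with OSM. The OSM libraries did not overlap with any other group, and the rise over control was log2 0.51, SE 0.076, adjusted p 0.000322. Ctsl, the gene of the cysteine protease cathepsin L and long known among genes that respond in muscle wasting, stood at 491 and 503 CPM in control, 492 and 540.5 with IL6, 550.0 and 578 with LIF, and 696 and 727 with OSM. The OSM libraries again lay above the other 6, and the rise was log2 0.52, SE 0.064, adjusted p 6.32e-05.

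The remaining cathepsins were not called. Ctsz was at 31.3 to 40.1 CPM over the 8 libraries, with a log2 difference between OSM and control of 0.00091. Ctsf was counted only 9 to 25 times per library, and its difference of log2 0.82, SE 0.42, adjusted p 0.192, was not called. Per kilobase of exon, the control levels of the 8 cathepsins were 198 CPM per kb for Ctsd, 76.6 for Ctsl, 73.6 for Ctsb, 40.4 for Ctsa, 26.1 for Ctsz, 0.18 for Ctsk, 0.0773 for Ctsf and 0.0126 for Ctss, the last 3 resting on few counts. The length is all annotated exon bases of a gene, merged over its transcripts (2.351 kb for Ctsd, 6.489 kb for Ctsl). This order therefore depends on the annotation as well. With OSM the order of Ctsl and Ctsb was the other way round, at 109.7 and 133 CPM per kb, while in control their levels differed by less than the SD of Ctsb (8.82 CPM per kb). The summed level of the 8 cathepsin genes was 1572 and 1698 CPM in control, 1583 and 1810 with IL6, 1983 and 2051 with LIF, and 2572 and 2598 with OSM.

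Of the 5 genes of lysosomal membrane proteins, 3 rose with OSM, where 10.8% of all genes were called higher. Lamp2, whose product is needed for lysosomes to fuse with autophagosomes, stood at 342 and 377 CPM in control, 376 and 405 with IL6, 459 and 471 with LIF, and 547 and 558 with OSM. The levels of OSM, LIF and control did not overlap. Mean levels were 359 ± 24.6 CPM in control and 553 ± 7.66 with OSM (SD, n = 2), a rise of log2 0.62, SE 0.065, adjusted p 1.36e-05. Lamp1, its close relative and the more abundant per kilobase in control (226 against 37.6 CPM per kb), was at 596 and 614 CPM in control, 607 and 627 with IL6, 666 and 645 with LIF, and 660.0 and 653 with OSM. Both LIF and both OSM libraries were above both controls, but the difference with OSM, log2 0.12, SE 0.057, adjusted p 0.172, was not called.

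Mcoln1 encodes the lysosomal calcium channel TRPML1. It was at 20.9 and 23.7 CPM in control, 24.1 and 23.2 with IL6, 20.6 and 22.6 with LIF, and 29.1 and 29.1 with OSM. The OSM libraries lay above the other 6, and the rise was log2 0.38, SE 0.089, adjusted p 0.00793. This call was lost without control replicate 1 or either OSM library (adjusted p 0.0584 to 0.072). Cd68, a lysosomal glycoprotein best known from macrophages, was low, at 1.85 and 2.12 CPM in control, 2.68 and 2.43 with IL6, 2.49 and 2.44 with LIF, and 4.28 and 3.83 with OSM. These levels rest on 54 and 63 counts in control and 125 and 114 with OSM. The rise was log2 1.03, SE 0.19, adjusted p 0.00186, the largest called change among the 44 genes on the log2 scale. Npc1, a cholesterol exporter of the lysosomal membrane, was at 106 to 125 CPM over the 8 libraries and was not called in any comparison.

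Among the 4 other lysosomal proteins, Npc2, which binds cholesterol in the lumen and hands it to NPC1, rose with OSM. It was at 198 and 222 CPM in control, 199 and 225 with IL6, 221 and 229 with LIF, and 285 and 283 with OSM, with the OSM libraries above all others, and the rise was log2 0.43, SE 0.072, adjusted p 0.000785. The hydrolases Gaa (acid alpha-glucosidase, which degrades glycogen), Hexa (a hexosaminidase subunit) and Neu1 (a sialidase) were not called. Their log2 differences between OSM and control were 0.15, 0.040 and 0.15. Control replicate 1 was the lower of the control libraries for each of these 4 genes.

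**Figure D2:**
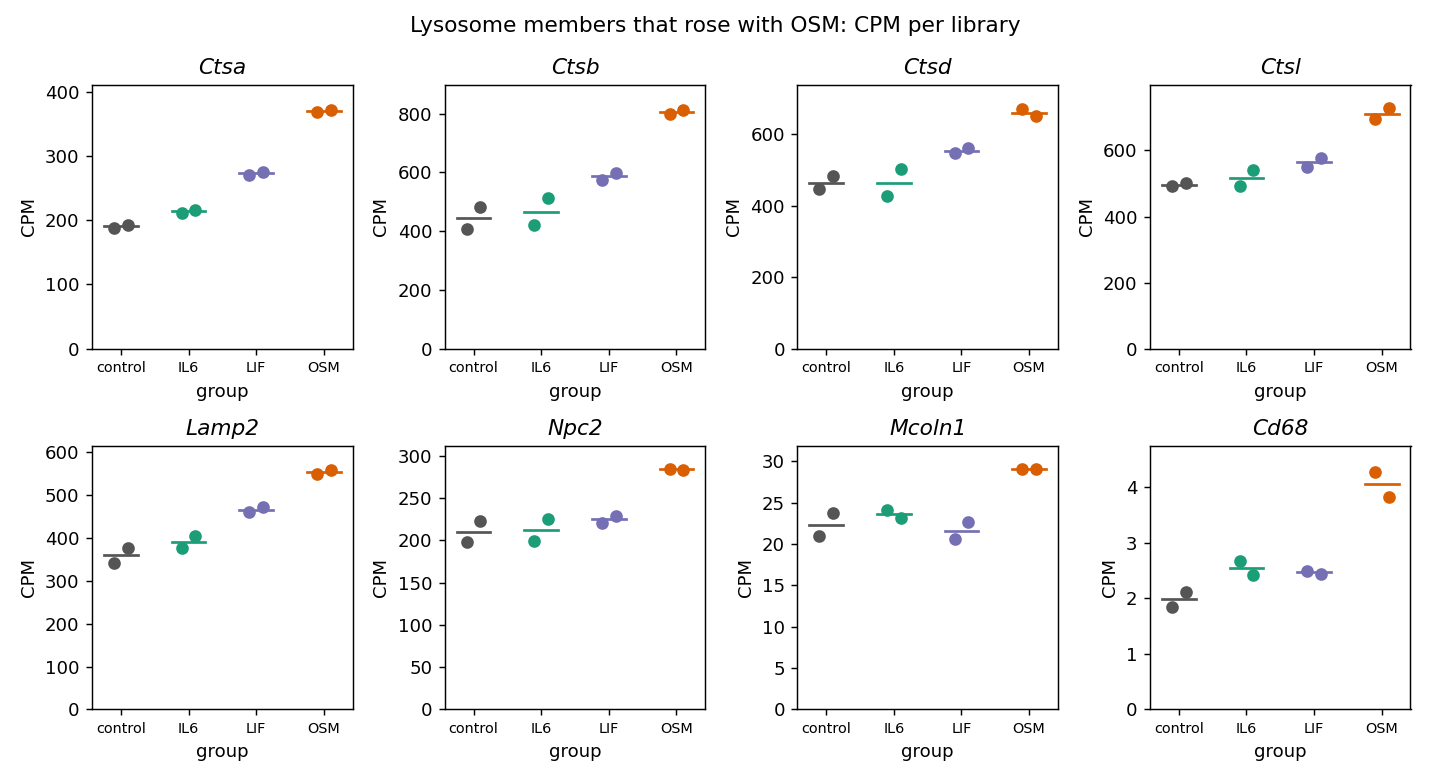
CPM of the 8 lysosome genes that rose with OSM, 1 point per library and a line at the mean of each group of 2. In every panel both OSM points lie above the 6 other points, and in all panels except Npc2 and Mcoln1 the LIF points lie between control and OSM.

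Some of these genes share exon sequence with a neighbour in the annotation used here (GENCODE M21), so their counts may depend on how shared reads were treated. Ctsd has 34.4% of its exon bases in Gm49369 on the same strand, and Gm49369 had too few counts to be tested. Ctsa overlaps Neurl2 and Pltp on the opposite strand over 17.4% of its bases, and Ctsb overlaps Fdft1 over 12.8%. Pltp and Fdft1 were lower with OSM, with log2 changes of −0.60 (SE 0.12, adjusted p 0.00337) and −0.24 (SE 0.071, adjusted p 0.0275). Neurl2 was not called, at 0.21 (SE 0.11, adjusted p 0.196). The opposite-strand partners of Ctsl, over 26.8% of its bases, were not tested. The autophagy gene Rb1cc1, which rose with OSM, overlaps 4732440D04Rik on the opposite strand over 3.80% of its bases. That partner rose as well, by log2 0.62 (SE 0.15, adjusted p 0.00999). Genes not called with OSM are overlapped too. On the opposite strand this covers 43.9% of the exon bases of Becn1, 28.3% of Gabarapl1, 22.3% of Bnip3, 17.3% of Sqstm1 and 12.8% of Hexa. On the same strand it covers 31.8% of Atg9a. Reads shared with any of these neighbours were not separated.

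Markers of macrophages and osteoclasts, which are rich in lysosomes, were compared in the same libraries. Of 14 macrophage markers, 4 were tested and C1qb and Tyrobp were at 0 in all 8 libraries, which allows up to 3 counts in each. Ptprc had 0 to 3 counts per library and Adgre1 0 or 1. Csf1r, too low to test, had 3 and 1 counts in control, 1 and 4 with IL6, 2 and 5 with LIF and 7 and 6 with OSM, the OSM libraries being highest. Fcer1g, also untested, had 3 and 2 counts in control, 6 and 5 with IL6, 1 and 2 with LIF and 6 and 6 with OSM. The summed macrophage level was 62.1 to 65.5 CPM in control, 61.6 to 64.7 with IL6, 58.7 to 63.7 with LIF and 68.5 to 74.6 with OSM, most of it from Laptm5. Against control the only macrophage marker called was Mrc1, which rose with OSM (log2 0.68, adjusted p 0.0145) and with LIF (log2 0.81, adjusted p 0.012). Laptm5 was higher with OSM than with LIF (log2 0.31, adjusted p 0.0483). Of 6 osteoclast markers 2 were tested, and Calcr was at 0 in all libraries. Their sum was 7.24 to 9.44 CPM in control, 7.97 to 9.07 with IL6, 10.4 to 13.8 with LIF and 16.4 to 17.1 with OSM. Nearly all of it came from Mmp9, which rose with OSM (log2 1.03, adjusted p 0.000326) and with LIF (log2 0.56, adjusted p 0.0448).

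Fibroblast, endothelial and myoblast markers were compared too. The 10 fibroblast markers summed to 1670 to 1733 CPM in control, 1514 to 1716 with IL6, 1993 to 2056 with LIF and 2064 to 2172 with OSM, mostly through Col3a1, and Lum and Tcf21 were at 0 in all libraries. Col3a1 and Pdgfra rose with OSM and Postn fell, and with LIF Col3a1 rose (adjusted p 0.00849) and Postn fell (adjusted p 0.00117). Col1a1 was at 309 and 169 CPM in control, 92.2 and 161 with IL6, 183 and 118 with LIF, and 72.1 and 84.7 with OSM. Both OSM libraries were below both controls, but the Col1a1 difference with OSM (log2 −1.61, SE 0.47, adjusted p 0.0858) was not called. The 8 endothelial markers summed to 9.51 to 10.2 CPM in control, 10.2 to 10.4 with IL6, 11.2 to 11.4 with LIF and 12.6 to 13.4 with OSM, and Emcn was at 0. Most of this sum came from Egfl7, which rose with OSM (log2 0.40, adjusted p 0.0203). The 6 myoblast markers summed to 959 to 989 CPM in control, 986 with IL6, 1139 to 1183 with LIF and 1126 to 1154 with OSM, with Pax7, Myf5 and Itga7 higher under OSM and Itga7 under LIF (adjusted p 0.0026). Of the 13 myotube markers, 4 fell and Des rose with OSM, and with LIF Myh8 fell (adjusted p 0.0385) and Des rose (adjusted p 0.000181). The part of these cell types in the lysosomal levels was not tested.

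Many lysosomal genes carry the palindrome CACGTG near their start, the core of the element recognised by TFEB and TFE3. It was searched on both strands in the 250 bases before the start in RefSeq promoter windows of GRCm38.p6, which matched 37 of the 46 genes. For 32 of their 42 windows, the first 20 bases after the start were found in a transcript of the gene. CACGTG occurred in 46.7% of 15 lysosome genes and 20.0% of 20 autophagy genes, against 6.86% of 27025 genes with a window, expressed or not. In the further lists described below it occurred in 27.0% of 37 other lysosomal genes and 11.1% of 27 other autophagy genes. The share was 14.3% for the 14 V-ATPase subunits and for the 21 upstream regulators with a window. Of the 14 genes with a window that rose with OSM 28.6% carried it, against 29.7% of all 37. The longer palindrome TCACGTGA, which contains it, occurred in 20.0% of lysosome genes, 5.0% of autophagy genes and 0.907% of all genes. The STAT-type motif TTCNNNGAA was in none of the 15 lysosome genes, in 20.0% of the autophagy genes and in 8.13% of all genes. GTAAACA, a FOXO-type motif, was in none of these 37 genes and in 3.54% of all. A match is a run of letters and was not tested as a binding site.

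The stretches below hold CACGTG in capitals, each written 5′ to 3′ on the strand of its gene. They are shown for 4 genes that rose with OSM, and for Lamp1 and Atg3, which carry the motif more than once and were not called.
Ctsa, chr2:164833731-164833772 (+ strand): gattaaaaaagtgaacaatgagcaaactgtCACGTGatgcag
Ctsd, chr7:142387890-142387955 (- strand): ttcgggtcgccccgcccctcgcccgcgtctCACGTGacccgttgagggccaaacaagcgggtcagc
Ctsl, chr13:64370721-64370770 (- strand): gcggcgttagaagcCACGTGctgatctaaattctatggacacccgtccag
Mcoln1, chr8:3500418-3500509 (+ strand): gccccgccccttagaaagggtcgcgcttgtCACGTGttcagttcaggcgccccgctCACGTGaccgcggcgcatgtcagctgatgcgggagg
Lamp1, chr8:13159070-13159160 (+ strand): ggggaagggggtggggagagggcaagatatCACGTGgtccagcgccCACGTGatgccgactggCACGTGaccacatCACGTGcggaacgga
Atg3, chr16:45158705-45158793 (+ strand): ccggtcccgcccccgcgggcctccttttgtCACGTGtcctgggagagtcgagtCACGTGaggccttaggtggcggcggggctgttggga

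In Ctsa the motif begins 12 bases before the annotated start, in the Ctsd stretch 98 and in Ctsl 236. Ctsd holds another copy, not shown, 245 bases before the start. Mcoln1 holds it 71 and 45 bases before, Atg3 94 and 71, and Lamp1 holds 4 copies between 61 and 15 bases before. Of the 7 tested lysosome genes with CACGTG, 4 rose with OSM (Ctsa, Ctsd, Ctsl and Mcoln1) and the median log2 change of the 7 was 0.51. These 7 include Ctsf, which was not called (log2 0.82) and rests on 9 to 25 counts per library. Of the 6 without it in the window, 3 rose (Lamp2, Cd68 and Npc2), with a median of 0.29. Ctsb, which rose with OSM, and Npc1, which was not called, had no window and are in neither group. None of the 4 autophagy genes with CACGTG (Atg3, Atg5, Atg7 and Bnip3) was called with OSM, and 7 of 16 without it rose. Over all genes tested, 10.8% were called higher with OSM and 21.4% were called in all. At these shares no call among 4 genes is unremarkable, and a link between the motif and the changes was not tested. Rb1cc1 and Pik3c3, which also rose, had no window.

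The called changes with OSM ran from −0.29 to 0.57 among autophagy genes on the log2 scale, and from 0.38 to 1.03 among lysosome genes. In the initiation complex 4 of 6 genes rose with OSM, where 10.8% of all genes were called higher. Rb1cc1 encodes FIP200, the scaffold of the ULK1 complex, and stood at 106 and 104 CPM in control, 114 and 107 with IL6, 117 and 114 with LIF, and 138 and 143 with OSM. The OSM libraries were apart from the rest, with a rise of log2 0.41, SE 0.060, adjusted p 0.000258. Atg13, the adaptor that binds ULK1 to FIP200, was at 44.4 and 48.0 CPM in control, 44.7 and 48.6 with IL6, 51.6 and 51.4 with LIF, and 55.2 and 54.1 with OSM. Its rise was log2 0.24, SE 0.071, adjusted p 0.0273, and the LIF libraries lay between control and OSM. The Atg13 call was lost without control replicate 1 or any 1 LIF or OSM library (adjusted p 0.0553 to 0.166).

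Ulk2, a kinase related to ULK1, was at 58.4 and 57.3 CPM in control, 63.5 and 57.1 with IL6, 58.4 and 59.9 with LIF, and 67.2 and 68.5 with OSM, and Atg2a, a lipid transfer protein that feeds the growing membrane, at 19.0 and 20.0 CPM in control, 20.1 and 20.98 with IL6, 25.3 and 21.2 with LIF, and 26.5 and 27.3 with OSM. Ulk2 rose by log2 0.23, SE 0.068, adjusted p 0.0283, and Atg2a by log2 0.46, SE 0.096, adjusted p 0.00375. The Ulk2 call was lost without any 1 control, LIF or OSM library (adjusted p 0.057 to 0.154). In LIF replicate 1 Atg2a came near the OSM level, and in LIF replicate 2 it was near the control level. Ulk1 itself and Atg9a, the transmembrane scramblase of the pathway, were not called, with log2 differences of 0.12 and 0.062 between OSM and control.

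Among 5 nucleation genes 2 rose with OSM, where 10.8% of all genes were called higher. Atg14, the subunit that directs the VPS34 complex to autophagy, was at 9.61 and 9.34 CPM in control, 9.69 and 10.2 with IL6, 10.1 and 12.1 with LIF, and 14.3 and 13.8 with OSM. The rise was log2 0.57, SE 0.12, adjusted p 0.00318, the largest called log2 change among the 27 autophagy genes. Pik3c3, the catalytic VPS34 subunit, was at 19.9 and 20.99 CPM in control, 22.9 and 21.04 with IL6, 21.3 and 25.3 with LIF, and 27.3 and 26.0 with OSM, with a rise of log2 0.38, SE 0.098, adjusted p 0.0135. The Pik3c3 call was lost without control replicate 1 or either OSM library (adjusted p 0.0581 to 0.119). LIF replicate 2 was above LIF replicate 1 in both genes. Becn1, the partner of both products, was at 83.0 and 83.1 CPM in control, 82.7 and 79.5 with IL6, 83.3 and 78.6 with LIF, and 76.3 and 77.4 with OSM, and its difference of log2 −0.11, SE 0.061, adjusted p 0.231, was not called. The phosphoinositide-binding genes Wipi1 and Wipi2 were not called either, at 0.080 and 0.049.

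No gene of the conjugation machinery (Atg3, Atg4b, Atg5, Atg7, Atg12 and Atg16l1) was called against control with any cytokine, and their median log2 change with OSM was 0.054. Atg7, the E1-like enzyme that activates both conjugation systems, was at 10.4 and 11.1 CPM in control, 8.70 and 8.57 with IL6, 9.05 and 10.1 with LIF, and 11.9 and 11.8 with OSM. The IL6 and LIF libraries lay below both controls and the OSM libraries above. The difference between OSM and control was not called (log2 0.15, SE 0.11, adjusted p 0.39), and the level was higher with OSM than with IL6 (log2 0.46, SE 0.11, adjusted p 0.0132), a call lost without OSM replicate 1 (adjusted p 0.0944) or 2 (adjusted p 0.0745).

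Of the 5 genes of the ATG8 family, the proteins attached to the autophagosome membrane, 2 rose with OSM, where 10.8% of all genes were called higher. Map1lc3b (LC3B) was at 129 and 138 CPM in control, 133 and 135 with IL6, 144 and 149.8 with LIF, and 178 and 181 with OSM, and Gabarap at 154 and 171 CPM in control, 151 and 175 with IL6, 179.8 and 178 with LIF, and 211 and 208 with OSM. In both genes the OSM libraries lay above the other 6, with rises of log2 0.43, SE 0.059, adjusted p 0.000158, for Map1lc3b and log2 0.37, SE 0.074, adjusted p 0.00304, for Gabarap. The other 3 members were not called with OSM against control.

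Map1lc3a was at 49.0 and 54.5 CPM in control, 45.5 and 53.0 with IL6, 53.2 and 52.8 with LIF, and 58.3 and 54.7 with OSM, and its difference with OSM was log2 0.13, SE 0.083, adjusted p 0.32. Gabarapl1 was at 87.6 and 86.6 CPM in control, 67.2 and 82.5 with IL6, 76.0 and 77.5 with LIF, and 84.5 and 87.4 with OSM, with IL6 replicate 1 lowest, OSM replicate 1 below both control libraries and OSM replicate 2 between them (log2 −0.019, SE 0.082, adjusted p 0.901). Gabarapl2 was at 37.9 and 34.0 CPM in control, 36.8 and 34.3 with IL6, 39.8 and 39.7 with LIF, and 40.6 and 39.1 with OSM, with a difference of log2 0.15, SE 0.077, adjusted p 0.199. Per kilobase of exon, control levels were 88.2 CPM per kb for Gabarap, 43.8 for Map1lc3a, 43.3 for Gabarapl1, 17.7 for Map1lc3b and 15.5 for Gabarapl2. Map1lc3a and Gabarapl1 did not differ in this order beyond their spread. The order also depends on the merged exon length, 7.517 kb for Map1lc3b and 1.181 kb for Map1lc3a. In CPM, Map1lc3b was above Map1lc3a in every library.

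The cargo receptors, which tie ubiquitinated cargo to ATG8 proteins, moved in both directions. Nbr1 was at 202 and 211 CPM in control, 212 and 213 with IL6, 223 and 226 with LIF, and 241 and 244 with OSM, and rose with OSM by log2 0.23, SE 0.056, adjusted p 0.00946. The Nbr1 call was lost without control replicate 1 or either OSM library (adjusted p 0.0575 to 0.0787). Optn (optineurin) was at 18.8 and 19.9 CPM in control, 17.7 and 19.2 with IL6, 17.9 and 17.6 with LIF, and 15.2 and 16.5 with OSM. It was the only gene of the 44 called lower, with a change of log2 −0.29, SE 0.094, adjusted p 0.0439, and that call was lost under 9 of 13 alternative settings, among them DESeq2 (adjusted p 0.104) and leaving out any 1 control, LIF or OSM library (adjusted p 0.0705 to 0.266). Sqstm1, which encodes p62, was at 389 and 366 CPM in control, 337 and 366 with IL6, 346 and 332 with LIF, and 355 and 339.5 with OSM. Both OSM and both LIF libraries were below both control libraries, but the OSM difference of log2 −0.12, SE 0.064, adjusted p 0.213, was not called.

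The mitophagy receptors Bnip3 and Bnip3l were not called. Bnip3, which marks mitochondria for removal and is induced by FOXO3 and by hypoxia, was the most abundant of the 46 genes per kilobase of exon, at 697 CPM per kb in control. It stood at 1658 and 1497 CPM in control, 1648 and 1656 with IL6, 1637 and 1597 with LIF, and 1585 and 1536 with OSM. Each cytokine group overlapped with control. Its difference with OSM was log2 −0.015, SE 0.065, adjusted p 0.9, and that of Bnip3l 0.15. In M21, 62.4% of the 50-base stretches of Bnip3 also occur in transcripts of another gene.

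**Figure D3:**
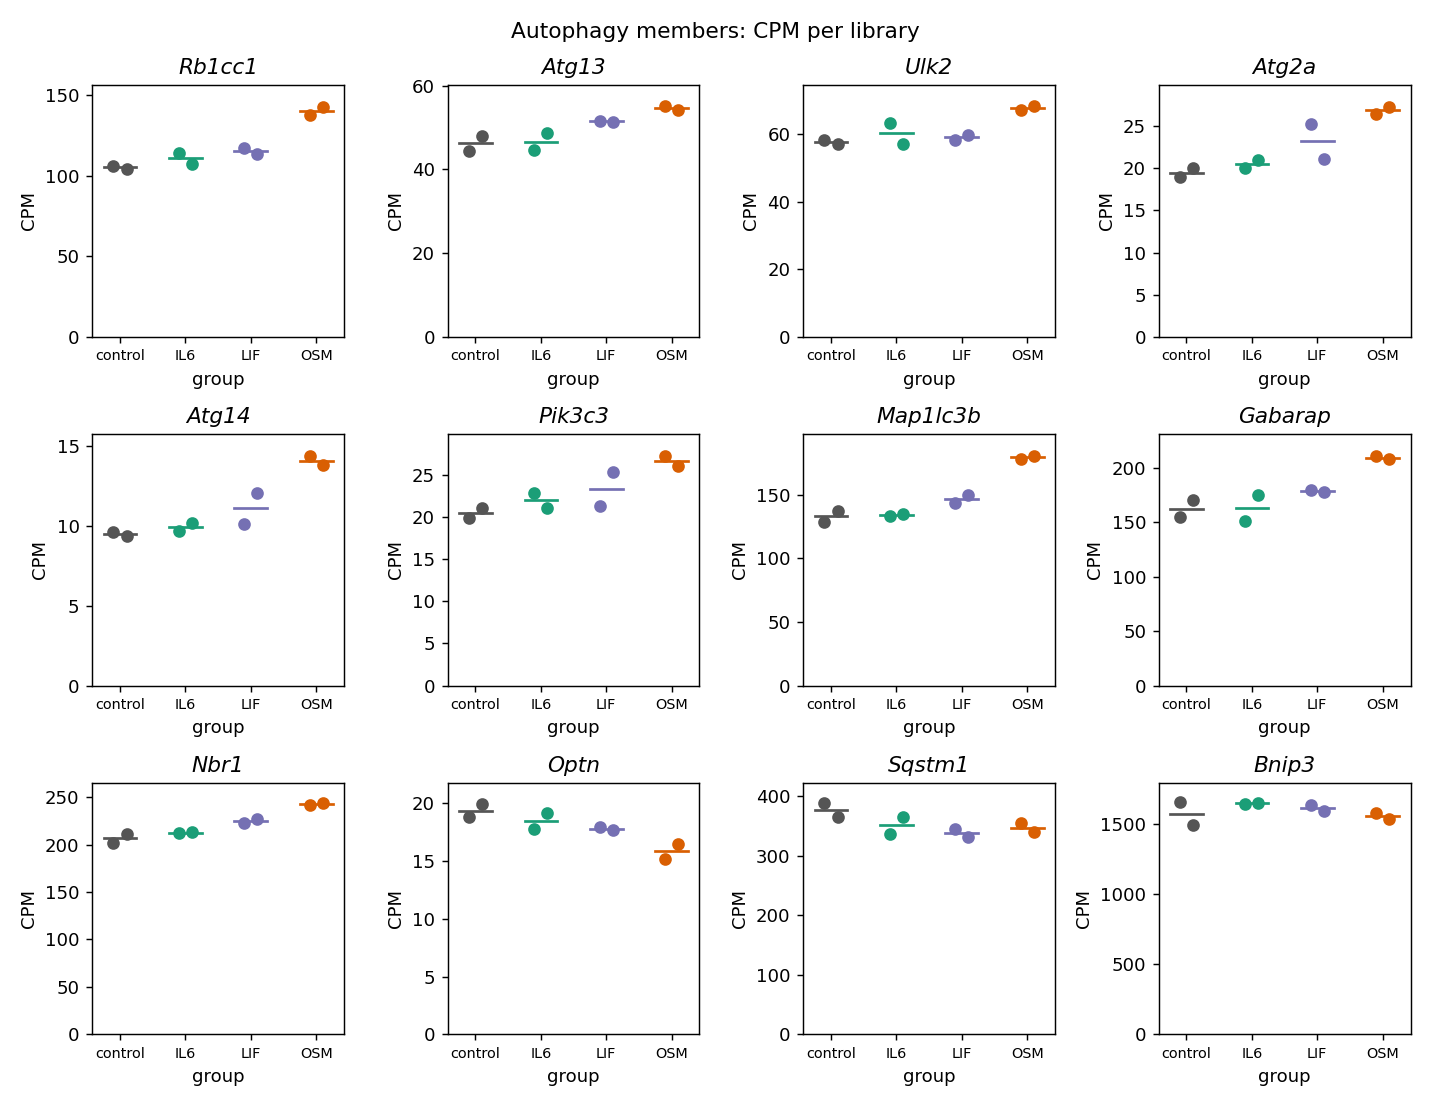
CPM of 12 autophagy genes, 1 point per library and a line at the mean of each group of 2. The OSM points lie above the other 6 in the panels from Rb1cc1 to Nbr1 and below them for Optn, while Sqstm1 and Bnip3 are shown as genes that were not called.

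Tfeb and Tfe3 encode transcription factors of lysosomal and autophagy genes whose activity is set largely by phosphorylation and nuclear entry. Tfeb was at 11.9 and 13.9 CPM in control, 11.2 and 13.5 with IL6, 13.2 and 12.7 with LIF, and 13.0 and 12.8 with OSM, and Tfe3 at 34.8 and 37.6 CPM in control, 35.4 and 35.6 with IL6, 37.4 and 37.1 with LIF, and 39.8 and 40.6 with OSM. Tfeb levels overlapped between all groups, with a log2 difference of 0.00012 (SE 0.12) between OSM and control. Both OSM libraries were highest for Tfe3, but its difference of log2 0.15, SE 0.071, adjusted p 0.158, was not called. RNA levels do not report the location or activity of these factors.

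The 3 LIF rises were of lysosome genes. They were log2 0.52, SE 0.055, adjusted p 9.29e-05, for Ctsa, log2 0.37, SE 0.065, adjusted p 0.00353, for Lamp2 and log2 0.40, SE 0.095, adjusted p 0.0245, for Ctsb. The Ctsb call was lost when a single control, LIF or OSM library was left out (control replicate 1, either LIF or either OSM library, adjusted p 0.0521 to 0.197), and the Lamp2 call without LIF replicate 2 (adjusted p 0.0725). Ctsd and Neu1 came next, at log2 0.25, SE 0.076, adjusted p 0.062, and log2 0.29, SE 0.096, adjusted p 0.099, and were not called. Among the 27 autophagy genes none was called with LIF, and the values for Map1lc3b and Rb1cc1 were log2 0.14, SE 0.059, adjusted p 0.197, and log2 0.13, SE 0.060, adjusted p 0.231.

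With IL6 no gene was called. The 3 genes with the lowest unadjusted p were Ctsa, at log2 0.17, SE 0.055, adjusted p 0.943, Gabarapl1, at log2 −0.22, SE 0.082, adjusted p 0.943, and Atg7, at log2 −0.31, SE 0.11, adjusted p 0.943. At an unadjusted p under 0.05, 3 of the 44 genes and 795 of all genes differed between IL6 and control in edgeR's test. DESeq2 called 0 of the 44 and 19 of all genes. Without IL6 replicate 2, edgeR's test called 1 of the 44 (Gabarapl1) and 202 of all genes. The IL6 replicates differed from each other more than those of the other groups, with a chi-square per gene of 12, against 9.71 in control, 5.15 with OSM and 2.97 with LIF, where counting error alone gives 1.

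The cytokines were also compared directly at the same dose and time. OSM was higher than LIF in 9 of the 44 genes and lower in none, where 8.04% of all genes were called and 4.01% called higher. Of these, 7 were lysosome genes. The differences were log2 0.44, SE 0.055, adjusted p 0.000211, for Ctsa, log2 0.45, SE 0.095, adjusted p 0.0107, for Ctsb, log2 0.34, SE 0.064, adjusted p 0.00481, for Ctsl and log2 0.25, SE 0.065, adjusted p 0.0305, for Lamp2. Mcoln1 (0.43), Cd68 (0.71) and Npc2 (0.34) completed the lysosomal group on the log2 scale, and Rb1cc1 (0.28) and Map1lc3b (0.29) were the autophagy genes. Of the 9, only Ctsa kept its call under all 13 alternative settings. The count was 1 without LIF replicate 1, 3 without LIF replicate 2, 2 without OSM replicate 1 and 1 without OSM replicate 2.

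OSM was higher than IL6 in 16 of the 44 genes and lower in none, where 15.5% of all genes were called and 8.02% called higher. These were 8 autophagy genes (Atg13, Rb1cc1, Atg2a, Atg14, Atg7, Map1lc3b, Gabarap and Nbr1) and 8 lysosome genes (Ctsa, Ctsb, Ctsd, Ctsl, Lamp2, Cd68, Mcoln1 and Npc2). The count was 8 without OSM replicate 1 and 10 without OSM replicate 2. LIF was higher than IL6 only in Ctsa (log2 0.35, SE 0.055, adjusted p 0.00423), a call lost without LIF replicate 1 (adjusted p 0.073) or 2 (adjusted p 0.0994), where 2.78% of all genes were called and 1.76% called higher. All of these comparisons draw on the same 8 libraries, and those against control share the control libraries.

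**Figure D4:**
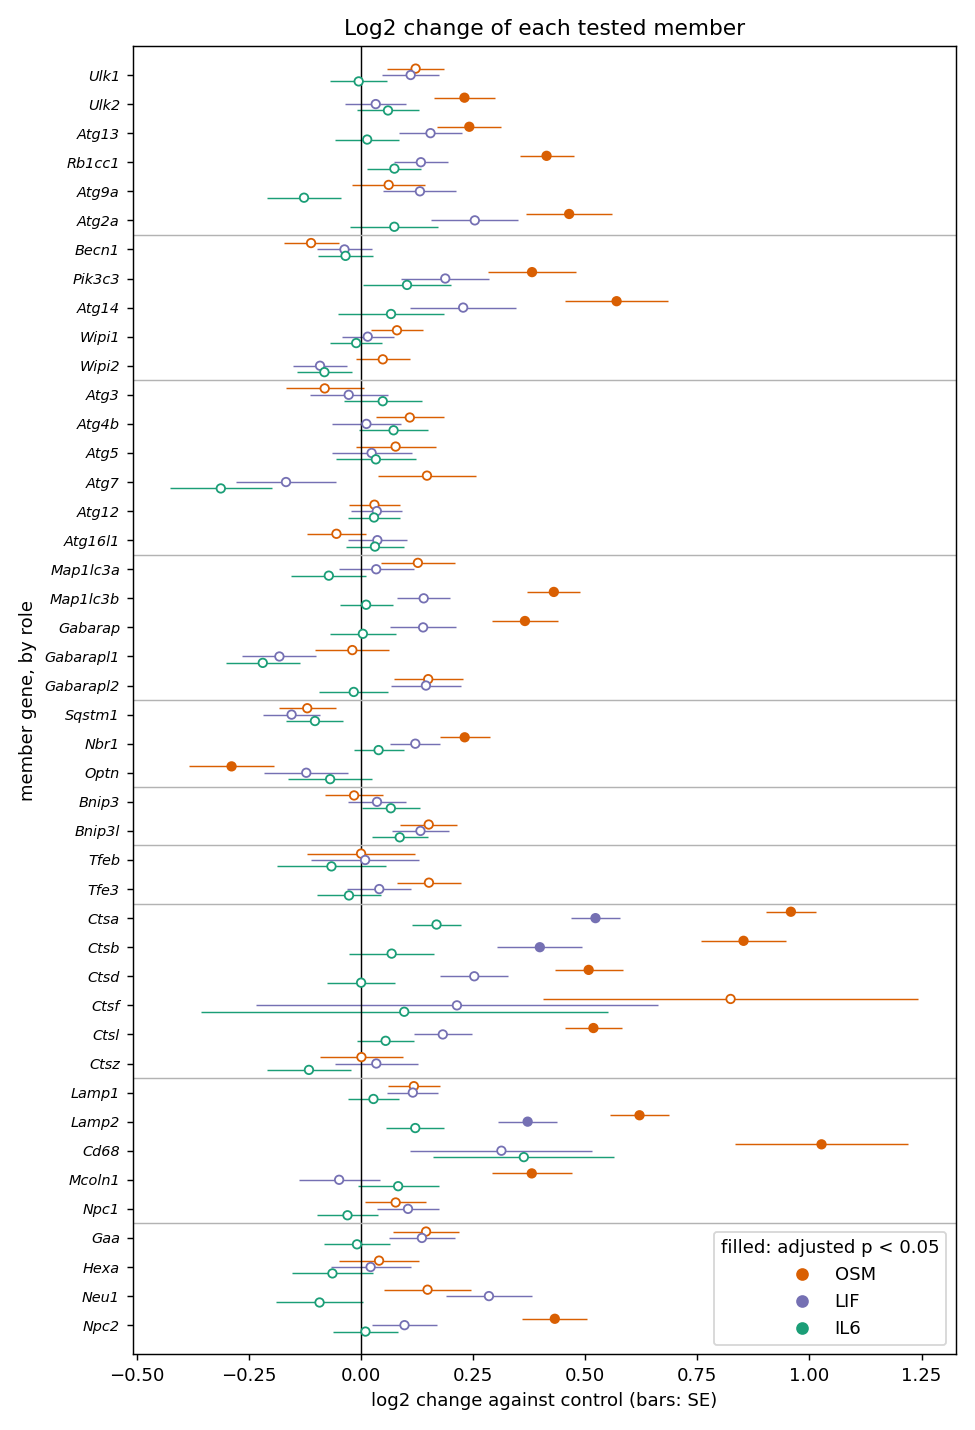
Log2 change of each of the 44 tested genes against control for OSM, LIF and IL6, with bars of 1 SE and filled points where the gene was called. Ctsa, Ctsb and Lamp2 show the order OSM, LIF, IL6, and most autophagy genes lie near 0 with every cytokine.

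Between the classes, the median log2 change with OSM was 0.43 over the 15 tested lysosome genes and 0.12 over the 27 autophagy genes, against −0.0029 over all genes tested. With LIF the medians were 0.18 and 0.036, against −0.0079 over all genes, and with IL6 0.028 and 0.014, against 0.00061. Summed over the class, lysosome genes were at 3143 and 3405 CPM in control, 3195 and 3548 with IL6, 3820 and 3899 with LIF, and 4556 and 4608 with OSM. The autophagy class summed to 4090 and 3905 CPM in control, 4034 and 4094 with IL6, 4139 and 4078 with LIF, and 4254 and 4173 with OSM. By role, the OSM medians ran from 0.67 for cathepsins, 0.38 for lysosomal membrane proteins and 0.24 for initiation genes, through 0.15 for the ATG8 family and for the other lysosomal proteins, to −0.12 for the cargo receptors. The cathepsin median, over 6 genes, lies midway between Ctsl (0.52) and Ctsf (0.82). Ctsf was not called and rests on 9 to 25 counts per library.

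Genes of the same pathways outside the 46 were read from 4 further lists. Of 49 other lysosomal genes, all tested, 18 rose and 2 fell with OSM, with a median log2 change of 0.15, where 10.8% of all genes were called higher and 10.6% lower. Among them Gla (alpha-galactosidase A) and Tpp1 (a peptidase) rose by 0.76 (SE 0.13, adjusted p 0.00108) and 0.68 (SE 0.088, adjusted p 0.000113) on the log2 scale. Cln3, a lysosomal membrane protein, rose by 0.71 (SE 0.23, adjusted p 0.0423). The sulfatase Arsb and the sorting receptor Sort1 fell. With LIF 2 of the 49 rose, Gla (log2 0.54, adjusted p 0.0262) and Cd164 (log2 0.29, adjusted p 0.0159), and the median was 0.050. This share of 4.08% is near the 4.2% of all genes called higher with LIF.

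The V-ATPase is the pump that acidifies lysosomes. Of 18 subunits tested of 20 listed, Atp6ap1 (log2 0.21, adjusted p 0.017) and Atp6v1c1 (log2 0.19, adjusted p 0.0422) rose with OSM and none fell, with a median of 0.016. That is 11.1% called, near the 10.8% of all genes called higher, where 21.4% were called in all. With LIF, Atp6v0a2 rose by 0.25 (adjusted p 0.0301), 5.56% called, where 4.2% of all genes were called higher and 7.66% in all. Of 31 other autophagy genes 7 rose and 1 (Wdr45b) fell with OSM, with a median of 0.067. The 25.8% called is near the 21.4% of all genes, where 10.8% were called higher and 10.6% lower. The 9.68% called with LIF is near the 7.66% of all genes. Vmp1, a membrane protein of autophagosome formation, rose by 0.53 (SE 0.065, adjusted p 6e-05), Wdr45, a WIPI family member, by 0.47, Plekhm1, an adaptor for lysosome fusion, by 0.37 and Bag3, a co-chaperone of selective autophagy, by 0.35 on the log2 scale. With LIF, Plekhm1 (log2 0.34) and Vmp1 (log2 0.24) rose and Atg4a fell (log2 −0.30).

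Of 23 upstream regulators, which include mTORC1, AMPK, FOXO and folliculin genes, 22 were tested. None rose and 3 fell with OSM, where 10.8% of all genes were called higher and 10.6% lower. That share of 13.6% is near the 10.6% called lower and below the 21.4% called in all. The 3 genes were Atf4 (log2 −0.30, adjusted p 0.0171), Flcn (−0.20, adjusted p 0.0299) and Foxo1 (−0.20, adjusted p 0.0487). Flcn encodes folliculin, a regulator of mTORC1 at the lysosome that acts on TFEB and TFE3, and it was also the only gene of the list called with LIF, with a log2 change of −0.49 (SE 0.062, adjusted p 0.00037). Flcn was higher with OSM than with LIF by 0.29 (SE 0.062, adjusted p 0.0108). With IL6 none of the genes in these 4 lists was called.

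**Figure D5:**
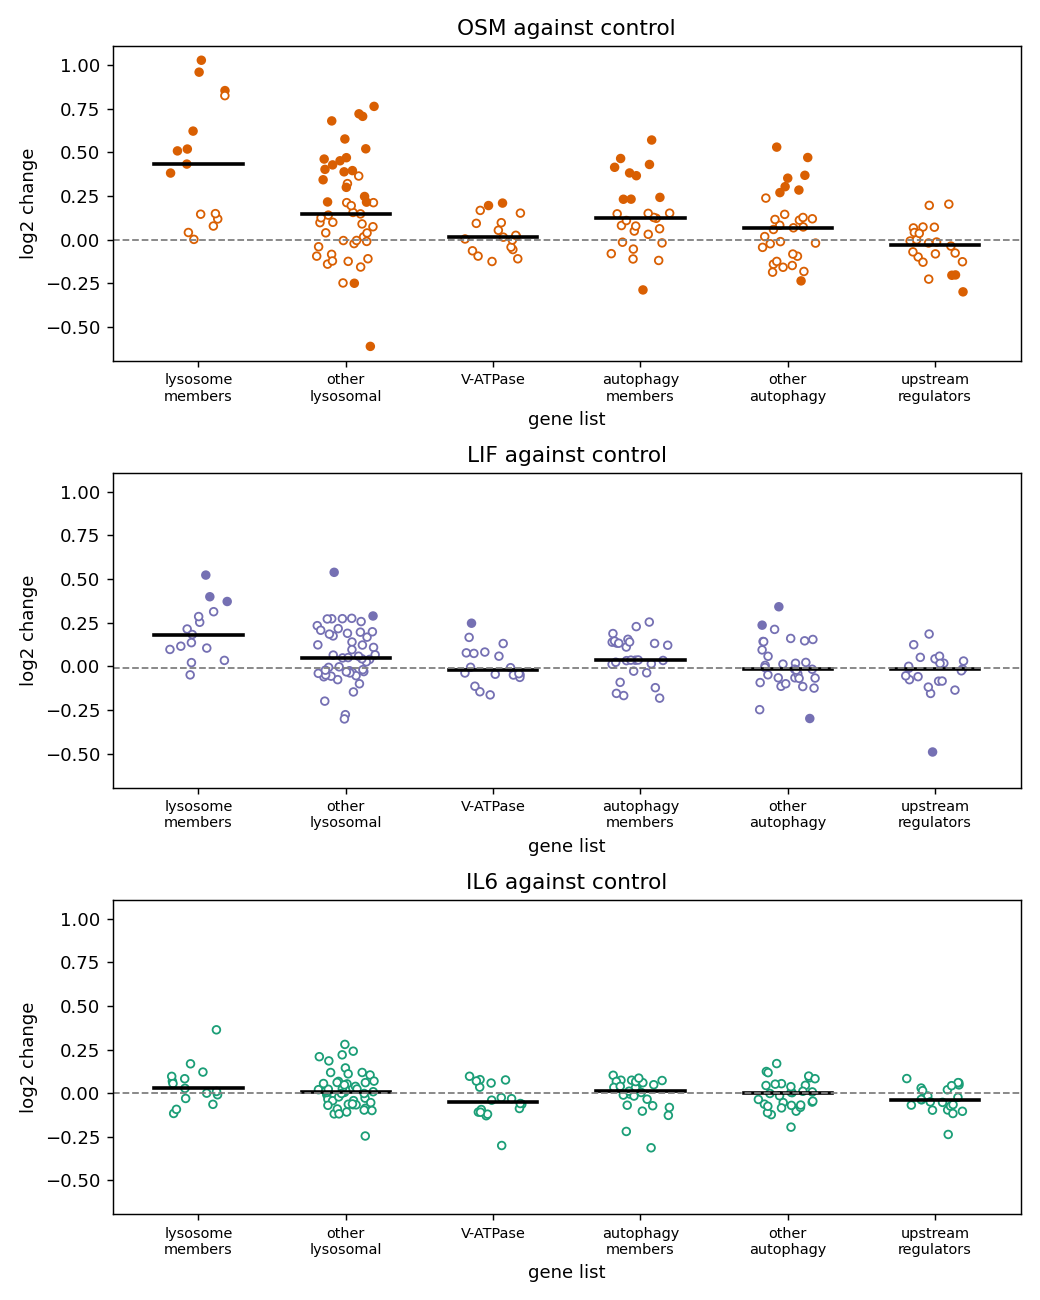
Log2 change against control (vertical axis) of each tested gene in the lysosome and autophagy classes and in the 4 further lists, for OSM, LIF and IL6 (panels). Each point is a gene, filled where it was called, black lines are list medians and the dashed line is the median of all genes tested. Filled points are most frequent for OSM in the lysosomal lists and absent for IL6.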

How the data were processed

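Raw counts of reads per gene in 8 libraries, 1 table each, were deposited by the authors. Per the labels' protocols the libraries came from a stranded mRNA kit. The submitters' processing notes name GRCm39 (mm39), Trim Galore 0.6.5, STAR 2.7.3a, HTSeq 0.11.1 and DESeq2 1.34.0, and the strand setting of the counting is not given in the sources used here. Summary lines that name no gene held 11.7% to 12.7% of the alignments and entered neither library sizes nor tests.

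In R 4.3.3, edgeR 4.0.16 was used with filterByExpr (minimum count 10), TMM scaling and a robust quasi-likelihood model of 4 group means (4 residual degrees of freedom). F tests in 6 contrasts were adjusted by Benjamini and Hochberg over 15603 genes, and SE is the log2 change divided by the root of F. The code was tested on simulated data. Alternatives were DESeq2 1.42.0, other scaling, no filter, only the 2 groups compared, a replicate block and leaving out each library.

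The 46 genes and all lists were chosen with earlier results of these data known. Named with every library's value are genes called in any contrast plus the ATG8 family, Tfeb, Tfe3, Ctsl, Sqstm1, Bnip3, Lamp1, Lamp2 and Becn1. From each further pathway list at most 4 called genes with the largest change are named by rule for each contrast (1 such gene is not reported here), and Arsb, Sort1, Wdr45b and genes of the marker lists were named after their values were seen. Symbols, exon lengths and overlaps came from GENCODE M21 (GRCm38), and promoter windows from RefSeq (GRCm38.p6). Neither build is GRCm39, so the coordinates refer to the promoter windows only. Intervals and limits from counts cover counting error only.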

Additional observations from a re-analysis of the deposited data

How the results depend on the processing

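Over 28 named genes in 6 comparisons and 13 alternative settings, 1971 of 2184 values kept their direction and their side of the threshold, 100 lost a call, 53 gained one, 60 changed sign while uncalled in both, and none reversed as a call. Of the 18 genes called with OSM, 12 stayed called under every alternative. The numbers did not pair the libraries by the labels, and over all genes tested deviations of same-numbered libraries correlated by 0.00708 to 0.181. The summed lysosome class was nevertheless lower in replicate 1 than in replicate 2 in all 4 groups. The sums were 3143 and 3405 CPM in control, 3195 and 3548 with IL6, 3820 and 3899 with LIF, and 4556 and 4608 with OSM. The summed autophagy class was lower in replicate 1 only with IL6. Whether same-numbered libraries share a batch was not tested. With a replicate block the called genes were 18 for OSM against control, 5 (from 3) for LIF against control and 5 (from 1) for LIF against IL6. Without the count filter these last were 5 and 6, DESeq2 called 4 for LIF against IL6, and a fit of only the 2 groups called 15 (from 9) for OSM against LIF. Leaving out 1 library at a time gave 12 to 18 called genes for OSM against control, 1 to 7 for LIF, 0 to 1 for IL6 (Gabarapl1, without IL6 replicate 2), 1 to 12 for OSM against LIF, 8 to 17 for OSM against IL6 and 0 to 5 for LIF against IL6. The lysosome median minus the autophagy median was 0.31 for OSM against control (0.237 to 0.42 on leaving out a library), 0.147 for LIF (0.0195 to 0.187), 0.014 for IL6 (−0.0834 to 0.0791), 0.169 for OSM against LIF (0.147 to 0.21, and 0.249 without the filter), 0.256 for OSM against IL6 (0.209 to 0.398) and 0.0887 for LIF against IL6 (0.0167 to 0.184). The low LIF value was the one without control replicate 1, and the cause was not tested. Over all genes, IL6 against control had 0 calls, but 97 without the filter, 19 by DESeq2, 9 with the replicate block, 202 without IL6 replicate 2, 14 without control replicate 2 and 3 without IL6 replicate 1. OSM against LIF had 1255, but 2936 in a fit of only the 2 groups and 430 to 636 without a LIF or OSM library. OSM against IL6 had 2426, but 1096 and 1312 without OSM replicate 1 and 2. LIF against control had 1195, but 429 and 310 without LIF replicate 1 and 2. LIF against IL6 had 434, but 985 without the filter, 826 with the replicate block and 78 to 712 on leaving out a library. Depth limits Ctsf, Cd68, Ctsk and Ctss.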
